A study of Bos taurus with 12 samples.

Results

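The miRNAs bta-miR-320a, bta-miR-484 and bta-miR-877 are described here across mammary biopsies of 12 Chinese Holstein cows. They were chosen by name, as miRNAs known from other mammals to be made without Drosha, and the rule uses no measured value, although earlier results of these data were known when it was set. All 3 were found among the 388 mature miRNAs of the deposited table, in 4 of its 426 precursor entries. The cows were healthy and multiparous, and each library is from a different cow. HP and LP are the high and low milk protein percentage phenotypes in lactation, and HD and LD are the high and low phenotypes in the non-lactating period before calving, with 3 libraries in each group. The labels name no treatment or genetic change, and the phenotype of a cow rests on its milk records. The bovine route by which these miRNAs are made was not measured, so the name of the set is background and not a result.

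Most miRNAs are cut by Drosha and then by Dicer. Drosha releases a hairpin from a long primary transcript in the nucleus, and Dicer then trims the hairpin in the cytoplasm. The precursors of miR-320a and miR-484 are instead transcribed directly as short hairpins that keep the cap of a transcription start site, so that only Dicer is needed. miR-877 is a mirtron, a short intron that the splicing machinery releases and that folds into a hairpin after debranching. In the RefSeq annotation of ARS-UCD2.0, a later build than the ARS-UCD1.2 used for the deposited values, the genes of these miRNAs lie beside or inside protein-coding genes. MIR320A-1 is the neighbour of POLR3D, which encodes a subunit of RNA polymerase III. MIR484 lies between MARF1 and NDE1, 2 protein-coding genes of which NDE1 acts in centrosome function and neuronal migration. MIR877 lies inside ABCF1, which encodes a factor of translation initiation. The second gene of miR-320a, MIR320A-2, lies inside RNF180, a ubiquitin ligase gene. The deposited table lists miR-320a at both of its genes with the same value in each of the 12 libraries, so its reads cannot be assigned to POLR3D or to RNF180. Mature sequences were not used here.

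Values are RPM, the reads of a miRNA scaled to a fixed total of counted reads in each library, and the authors call this unit TPM. The low values of each library are multiples of what 1 read is worth, which gives an estimate of between 6026797 and 23577948 counted reads per library and of between 0.127 and 0.498 TPM for 3 reads. In these totals a read listed at several precursor entries counts at each, and all read numbers given here are inferred in this way from rounded values. HP replicate 1 had the fewest counted reads, and in the non-lactating period HD replicate 1 (11047703 reads) and LD replicate 1 (14327050 reads) had the fewest. These are reads counted at miRNA entries and not all reads sequenced. The paper reports similar numbers of clean reads for all libraries. A size factor per library, the median ratio of its miRNAs to the mean library, ranged from 0.764 in LD replicate 2 to 1.5 in HD replicate 1 and LD replicate 1. Normalized TPM is TPM divided by this factor. Intervals from read counts cover counting error only. The 8 epithelial markers (the miR-200 family, miR-205, miR-148a and miR-375) were all detected in every library. Their summed level was 126462 to 278669 normalized TPM in the lactation libraries and 35809 to 68521 in the non-lactating ones. Most of this sum is miR-148a, with a mean of 90130.5 TPM over the 12 libraries, followed by miR-141 with 13729. In bulk tissue, fewer cells of a type and less of a miRNA per cell cannot be told apart.

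Of the 3 miRNAs, miR-484 was the most abundant and miR-877 the least in every library. Over all libraries miR-484 had 220 ± 61.3 normalized TPM, miR-320a 48.0 ± 25.4 and miR-877 9.73 ± 5.63 (SD, n = 12), which placed them at ranks 107, 161 and 234 of 388 miRNAs. The order of the 3 levels is set by reads per library without a correction for how well each sequence is ligated and amplified, so it holds for reads and not for molecules. In deposited TPM, miR-320a had 107, 67.0 and 73.2 in the HP libraries and 39.1, 55.4 and 39.2 in the LP libraries. In the non-lactating period it had 67.1, 42.9 and 26.6 TPM in HD and 58.5, 16 and 14.3 TPM in LD. All lactation values of HP lay above those of LP, whereas HD and LD overlapped.

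For miR-877 the deposited values were 22.2, 13.8 and 13.5 TPM in HP and 5.38, 13.4 and 6.43 TPM in LP. They were 15.1, 9.76 and 4.58 TPM in HD and 16.9, 3.62 and 1.44 TPM in LD. The lowest HP value and the highest LP value of miR-877 were nearly the same. These values rest on few reads, from 30 in LD replicate 3 to 242 in LD replicate 1, and the 95% counting intervals of HP replicate 3 (11.3 to 15.9 TPM) and LP replicate 2 (11.4 to 15.8 TPM) overlap. miR-320a rested on 298 to 946 reads and miR-484 on 1480 to 6013.

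For miR-484 the deposited values were 246, 259 and 303 TPM in HP and 200, 284 and 254 TPM in LP. They were 277, 244 and 124 TPM in HD and 420, 91.9 and 101 TPM in LD. HP and LP overlapped, and both the highest and the lowest library of all 12 were in LD.

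**Figure D1:**
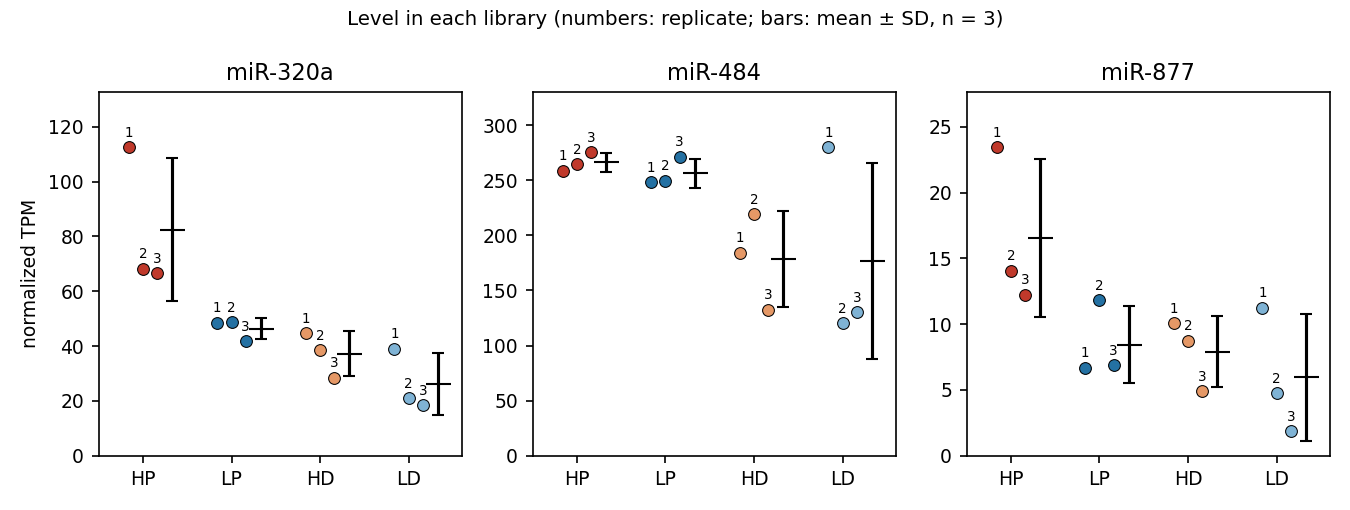
Normalized TPM of miR-320a, miR-484 and miR-877 in each library (points, numbered by replicate) of the groups HP, LP, HD and LD, with the mean ± SD of the 3 libraries at the right of each group. miR-320a falls from 82.4 ± 26.0 in HP to 26.1 ± 11.2 in LD, the 6 lactation libraries of miR-484 lie between 248 and 276, and LD replicate 1 lies above the other LD libraries in all 3 panels.

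HP vs LP asks whether these miRNAs differ with milk protein percentage in lactation. miR-320a was lower in LP, where it had 46.4 ± 3.91 normalized TPM against 82.4 ± 26.0 in HP (SD, n = 3), and miR-877 was lower in LP too, with 8.45 ± 2.91 against 16.6 ± 6.0 (SD, n = 3). The study called a miRNA DE where its log2 fold change was above 0.8 in size and its p-value, before any adjustment, was below 0.05. The study used DESeq2 on read counts. Here DE means the same criterion applied to limma on the deposited values. Calls given here can therefore differ from those of the study. By this criterion in limma both fell from HP to LP. The log2 fold change of LP over HP, on the log2(normalized TPM + 1) scale, was -0.83 for miR-320a (SE 0.31, 95% interval -1.52 to -0.13) and -0.93 for miR-877 (SE 0.38, 95% interval -1.78 to -0.07). Over all 388 miRNAs 10.1% were DE in this comparison, and 4.12% were DE and lower in LP. With Benjamini-Hochberg adjustment over all miRNAs neither passed (limma adjusted p = 0.251 for miR-320a and 0.286 for miR-877). Both changes are near the threshold of 0.8, and with 5 in place of 1 added before log2 they were -0.77 and -0.69 and no longer DE.

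miR-484 had nearly equal levels, 266 ± 8.56 normalized TPM in the HP libraries and 256 ± 13.0 in the LP libraries (SD, n = 3). Its log2 fold change was -0.11 (SE 0.23, 95% interval -0.62 to 0.41, limma adjusted p = 0.896), and the interval holds changes of both signs. It overlaps the interval of miR-320a (-1.52 to -0.13). Such an overlap does not test whether the 2 changes differ, since both miRNAs were measured in the same libraries. Their ratio within each library is given below. The HP and LP libraries of miR-320a and miR-877 did not overlap, as for 19.8% of all miRNAs. Those of miR-484 did not overlap with size factors from the 6 lactation libraries and overlapped in deposited TPM. For each of the 3 the two-sided exact permutation test gave p = 0.1, the smallest that 3 libraries against 3 allow.

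HP replicate 1 was the highest library of miR-320a and of miR-877, with 112 and 23.4 normalized TPM, against at most 68.3 and 14.1 in any other library. It was also the library with the fewest counted reads. Without it the log2 fold changes were -0.58 for miR-320a (limma adjusted p = 0.326) and -0.67 for miR-877 (limma adjusted p = 0.390), and neither was DE. miR-320a also lost its call without LP replicate 3 (-0.73, limma adjusted p = 0.465). miR-877 lost it without HP replicate 2 (-1.01, limma adjusted p = 0.528), LP replicate 1 (-0.80, limma adjusted p = 0.565) and LP replicate 3 (-0.80, limma adjusted p = 0.557). The sign was negative for both whichever of the 6 libraries was left out. The part of the number of counted reads in these differences was not tested.

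HD vs LD asks the same question in the non-lactating period. None of the 3 miRNAs was DE there in limma, where 3.35% of all miRNAs were. This gives no answer on calls from the study's own test on counts. The level of miR-320a was 37.2 ± 8.17 normalized TPM in the HD libraries against 26.1 ± 11.2 in the LD libraries (SD, n = 3), a log2 fold change of LD over HD of -0.58 (SE 0.38). miR-877 had 7.92 ± 2.68 against 5.95 ± 4.81 (SD, n = 3), a change of -0.59 (SE 0.55), and miR-484 had 179 ± 43.5 against 177 ± 89.4 (SD, n = 3), a change of -0.13 (SE 0.38). Each had a limma adjusted p of 0.993. The 95% intervals were wide, from -1.48 to 0.31 for miR-320a, from -1.89 to 0.70 for miR-877 and from -1.02 to 0.76 for miR-484. All 3 pairs of groups overlapped, whereas the groups did not overlap for 10.3% of all miRNAs.

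The LD libraries did not lie together. LD replicate 1 had 39.0 normalized TPM of miR-320a, 280 of miR-484 and 11.3 of miR-877, against 20.9, 120 and 4.74 in LD replicate 2 and 18.4, 130 and 1.86 in LD replicate 3. For all 3 miRNAs LD replicate 1 was at least as high as the mean of HD, and LD replicates 2 and 3 were below every HD library. Without LD replicate 1 the log2 fold change of miR-320a was -0.87 (limma adjusted p = 0.402), and it was DE. Without LD replicate 3 that of miR-877 went from -0.59 to -0.08. Within HD, replicate 3 was the lowest library for each of the 3. The 2 non-lactating libraries with the fewest counted reads, HD replicate 1 and LD replicate 1, were also the highest for miR-320a and miR-877. The part of the number of counted reads and of the size factors in this was not tested.

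Whether the difference between the phenotypes depended on stage was tested over all 12 libraries. The difference of the 2 log2 fold changes, LP over HP minus LD over HD, was -0.23 for miR-320a (95% interval -1.27 to 0.81), 0.04 for miR-484 (-0.94 to 1.02) and -0.33 for miR-877 (-1.83 to 1.17). All had a limma adjusted p of 0.993. Among all miRNAs 0 of 388 (0%) passed the adjusted threshold in limma, with 20 at an unadjusted p under 0.05. A call in lactation and none in the non-lactating period is therefore not shown to be a difference between the stages for miR-320a or miR-877.

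**Figure D2:**
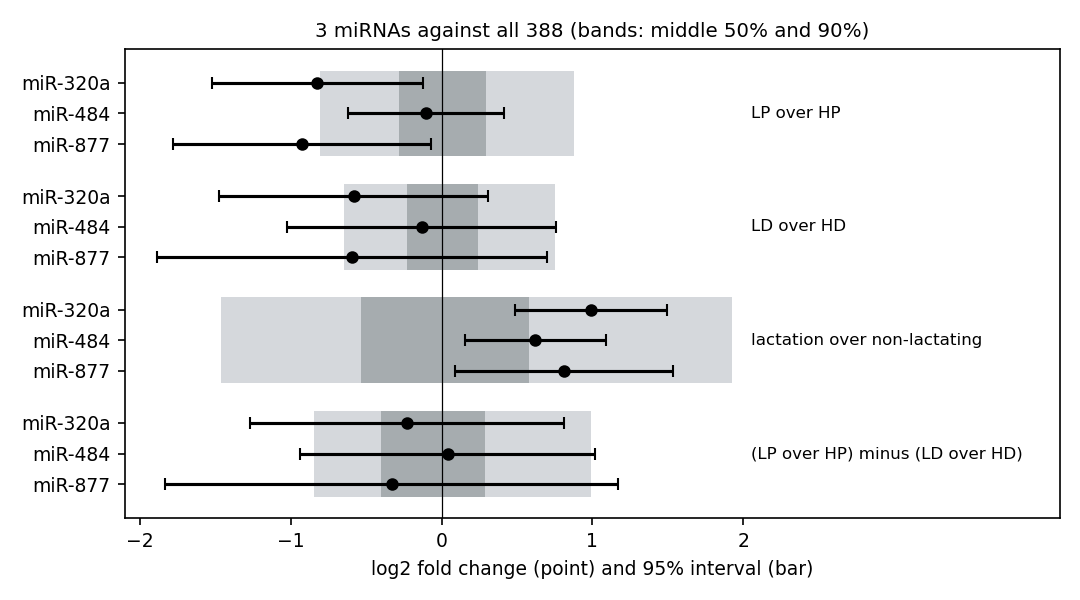
Log2 fold changes (points) with 95% intervals (bars) of the 3 miRNAs in each comparison, over grey bands that hold the middle 50% (dark) and 90% (light) of all 388 miRNAs. In LP over HP the points of miR-320a (-0.83) and miR-877 (-0.93) lie just outside the light band, which starts at -0.81, and in lactation over the non-lactating period all 3 points lie right of the dark band, which ends at 0.58.

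Between the stages, the level of miR-320a was 64.4 ± 25.8 normalized TPM in lactation against 31.7 ± 10.7 out of lactation (SD, n = 6). miR-484 had 261 ± 11.3 against 178 ± 62.9, and miR-877 had 12.5 ± 6.13 against 6.94 ± 3.65 (SD, n = 6). On the log2 scale lactation exceeded the non-lactating period by 0.99 for miR-320a (SE 0.23, limma adjusted p = 0.00406) and 0.62 for miR-484 (SE 0.22, limma adjusted p = 0.0328), so both were higher in lactation by limma. For miR-877 the difference was 0.81 (SE 0.34, limma adjusted p = 0.0651), which did not pass. Of all miRNAs 42.5% passed this test, 22.2% in the direction of lactation, and for 21.9% the stages did not overlap. The stages overlapped for each of the 3, for miR-320a in normalized TPM only by HD replicate 1 (44.7), which lay above LP replicate 3 (41.8). In deposited TPM its overlap was wider. HD replicate 1 (67.1), LD replicate 1 (58.5) and HD replicate 2 (42.9) lay above LP replicates 1 (39.1) and 3 (39.2). In the two-sided exact permutation test p was 0.00433 for miR-320a, 0.0152 for miR-484 and 0.0801 for miR-877, and adjusted over the 9 tests of the 3 miRNAs in 3 comparisons it was 0.0390, 0.0682 and 0.15.

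The stage difference of miR-320a kept its direction and its call whichever library was left out (0.87 to 1.15). That of miR-484 stayed between 0.53 and 0.80, but its call was lost without any of 6 libraries: HP replicate 2 (limma adjusted p = 0.0507), HP replicate 3 (0.0558), LP replicate 3 (0.0537), HD replicate 3 (0.0752), LD replicate 2 (0.0699) and LD replicate 3 (0.0667). miR-877 gained a call without LD replicate 1 (log2 fold change 1.07, limma adjusted p = 0.00765). Without size factors neither miR-320a (0.88, limma adjusted p = 0.0665) nor miR-484 (0.51, limma adjusted p = 0.271) passed. The epithelial markers moved with stage as well, 6 of 8 of them higher in lactation by the same test, and the part of tissue composition in the stage differences was not tested.

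The spread of miR-484 differed from that of the other 2 miRNAs. Its 6 lactation libraries ran from 248 to 276 normalized TPM, and its SD on the log2 scale was 0.0621. This was the lowest SD of all 388 miRNAs in lactation, where the median SD was 0.418. In the non-lactating period the SD of miR-484 was 0.485, at rank 234 from the lowest and near the median of 0.412, with a range from 120 to 280 normalized TPM. The ratio of the 2 SDs, 7.81, was the highest of all 388 miRNAs. For miR-320a the SDs were 0.508 and 0.506, and for miR-877 they were 0.626 and 0.791. This comparison of spreads was made after the values were seen, is a description of these 12 cows and has no test. It depended on the scaling: in deposited TPM the SD of miR-484 in lactation was 0.207 and stood at rank 33. With 5 added before log2 the SD was 0.0612, nearly unchanged, and stood at rank 16. With trimmed mean scaling, size factors from the lactation libraries alone or 0.1 added it stayed at rank 1, and it stood between ranks 1 and 3 when single lactation libraries were left out.

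**Figure D3:**
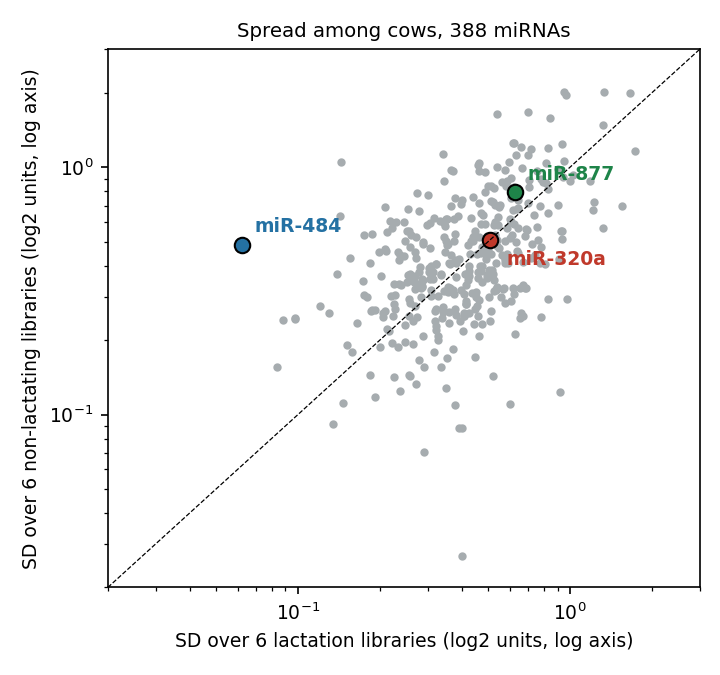
SD of log2(normalized TPM + 1) over the 6 lactation libraries (horizontal, log axis) against the SD over the 6 non-lactating libraries (vertical, log axis) for each of the 388 miRNAs (grey points), with the 3 miRNAs in colour and a dashed line where both are equal. miR-484 (0.0621 and 0.485) is the leftmost point, far above the line, while miR-320a (0.508 and 0.506) lies on it.

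The ratio of 2 miRNAs within a library does not depend on how the library is scaled. The level of miR-320a was 43.4%, 25.8% and 24.1% of that of miR-484 in HP, and 19.6%, 19.5% and 15.4% in LP. In the non-lactating period it was 24.2%, 17.6% and 21.5% in HD replicates 1, 2 and 3 and 13.9%, 17.4% and 14.2% in LD. In both stages, every high-phenotype library was above every low-phenotype library, in HD vs LD by little, 17.6% against 17.4%. How often other pairs of miRNAs separate in this way was not computed. The groups did not overlap for 19.8% of single miRNAs in LP over HP and for 10.3% in LD over HD. The log2 ratio was lower in LP than in HP by a mean difference of -0.73, and in LD than in HD by -0.47 (two-sided exact permutation p = 0.1 in each, the smallest for 3 against 3, adjusted over 9 tests 0.435). Without HP replicate 1 the first difference was -0.47. Between the stages the ratio differed by 0.39 in log2 (exact permutation p = 0.145), within the spread, and by 0.21 without HP replicate 1.

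The ratio of miR-877 to miR-484 overlapped between the groups in each comparison. It was 4.44% to 9.05% in the HP libraries and 2.53% to 4.73% in the LP libraries, and out of lactation 3.70% to 5.47% in HD and 1.43% to 4.02% in LD. The log2 ratio differed by -0.91 between LP and HP (exact permutation p = 0.2), by -0.61 between LD and HD (exact permutation p = 0.5) and by 0.32 between the stages (exact permutation p = 0.446). Without LD replicate 3 the difference between LD and HD was -0.12. The 2 miRNAs that were DE in lactation stood in a similar mean proportion to each other in the 4 groups, with miR-877 at 19.9% ± 1.33 of miR-320a in the HP libraries, 18.1% ± 5.47 in LP, 20.8% ± 3.13 in HD, and 20.5% ± 9.57 in the LD libraries (SD, n = 3). The log2 ratio differed by -0.18 between LP and HP, by -0.14 between LD and HD and by -0.07 between the stages (exact permutation p = 0.6, 0.9 and 0.784). Without LD replicate 3 the difference between LD and HD turned to 0.31. These ratios were examined after the levels were known.

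**Figure D4:**
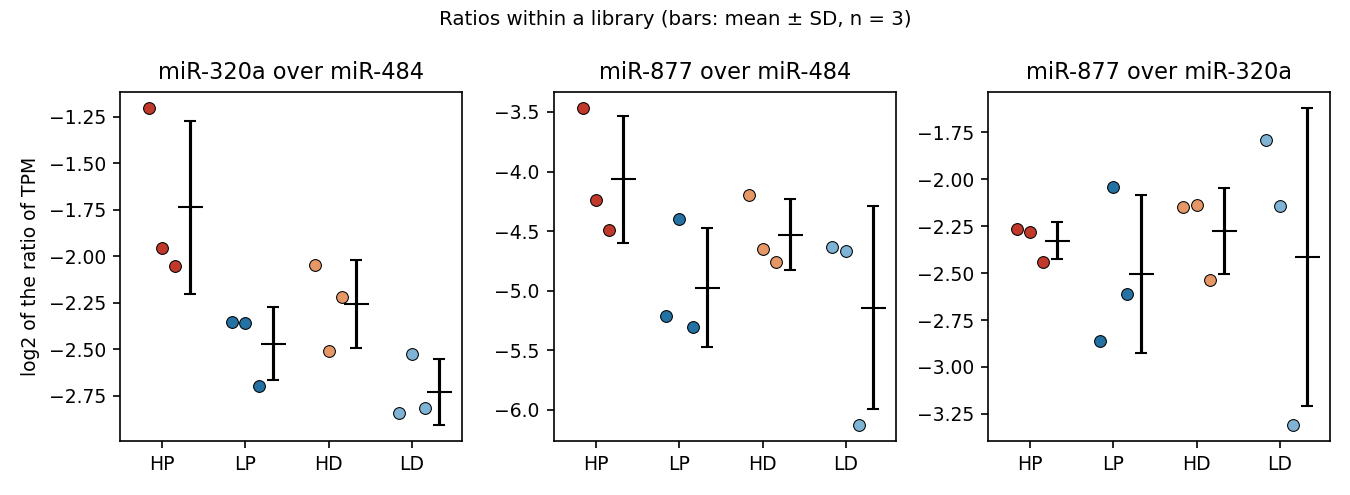
Log2 of the ratio of deposited TPM for each pair of the 3 miRNAs in each library (points, replicates 1 to 3 from left to right), with the mean ± SD of the 3 libraries of HP, LP, HD and LD. The ratio of miR-320a to miR-484 is higher in HP than in LP (means -1.74 and -2.47) and in HD than in LD (-2.26 and -2.73) without overlap, and that of miR-877 to miR-320a overlaps between all groups. The share of other miRNA pairs without overlap was not computed.

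Within each stage miR-320a and miR-877 rose and fell together over the cows. Over the 6 lactation libraries Pearson's r was 0.933 (exact permutation p = 0.00278, adjusted over 6 relations 0.0167) and Spearman's rho was 1, and over the 6 non-lactating libraries r was 0.930 (exact permutation p = 0.0139, adjusted 0.0417) and rho was 0.83 (exact permutation p = 0.0583). Without the 2 libraries farthest from the median of miR-320a, r was 0.740 for lactation and 0.878 for the non-lactating period. The lactation value covers HP and LP together, 2 groups that did not overlap in either miRNA. The r of miR-484 with miR-320a was 0.462 for lactation and 0.803 for the non-lactating period (exact permutation p = 0.364 and 0.0722, adjusted 0.364 and 0.108), with rho of 0.600 and 0.714 (exact permutation p = 0.242 and 0.136). Without the same 2 libraries of each stage this r was 0.911 and 0.572. The r of miR-484 with miR-877 was 0.484 and 0.823 (exact permutation p = 0.339 and 0.0361, adjusted 0.364 and 0.0722), with rho of 0.600 and 0.886 (exact permutation p = 0.242 and 0.0333, adjusted 0.242 and 0.1), and without the 2 farthest libraries it was 0.442 and 0.782. Differences between these correlations were not tested.

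Compared over the 12 libraries after each stage was centred on its mean, among 233 other miRNAs with a mean of at least 10 TPM, the pattern most like that of miR-320a was that of miR-877 (r = 0.922). It was followed by miR-423-3p (0.901), miR-128 (0.890), miR-92a (0.879) and miR-423-5p (0.878), and miR-484 stood at rank 37 (0.573). Both arms of miR-423 were DE in HP vs LP, with log2 fold changes of -0.89 for miR-423-3p (SE 0.33, limma adjusted p = 0.251) and -1.42 for miR-423-5p (SE 0.28, limma adjusted p = 0.0599). miR-128 (-0.39, limma adjusted p = 0.553) and miR-92a (-0.57, limma adjusted p = 0.315) were not DE. Closest to miR-877 were miR-128 (0.927), miR-320a (0.922), miR-411c-5p (0.849), miR-331-3p (0.843) and miR-296-3p (0.839), of which the last 3 were not DE in HP vs LP, with log2 fold changes of -0.39, -0.70 and -0.84. miR-484 had other neighbours: miR-1296 (0.913), miR-429 (0.842), miR-885 (0.841), miR-210 (0.839), which is induced by low oxygen in many cell types, and miR-493 (0.833). miR-429 is also among the epithelial markers. Since miR-484 varied little in lactation (SD 0.0621 against 0.485), its r values rest mainly on the non-lactating libraries. In LD replicate 1, miR-484 lay 0.72 above its stage mean in log2, its highest value. miR-1296 (0.73), miR-885 (2.17), miR-210 (0.71) and miR-493 (0.83) were highest there too, and miR-429 in HD replicate 1 (0.54). Of the 5 neighbours of miR-484, 0 were DE in HP vs LP, each with a limma adjusted p of at least 0.771 and 0 with an unadjusted p under 0.05. These likenesses were taken over the same HP and LP libraries as the fold changes, so the calls of the neighbours are no separate evidence. The libraries share their depth and scaling across all miRNAs, so these correlations are descriptions.

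**Figure D5:**
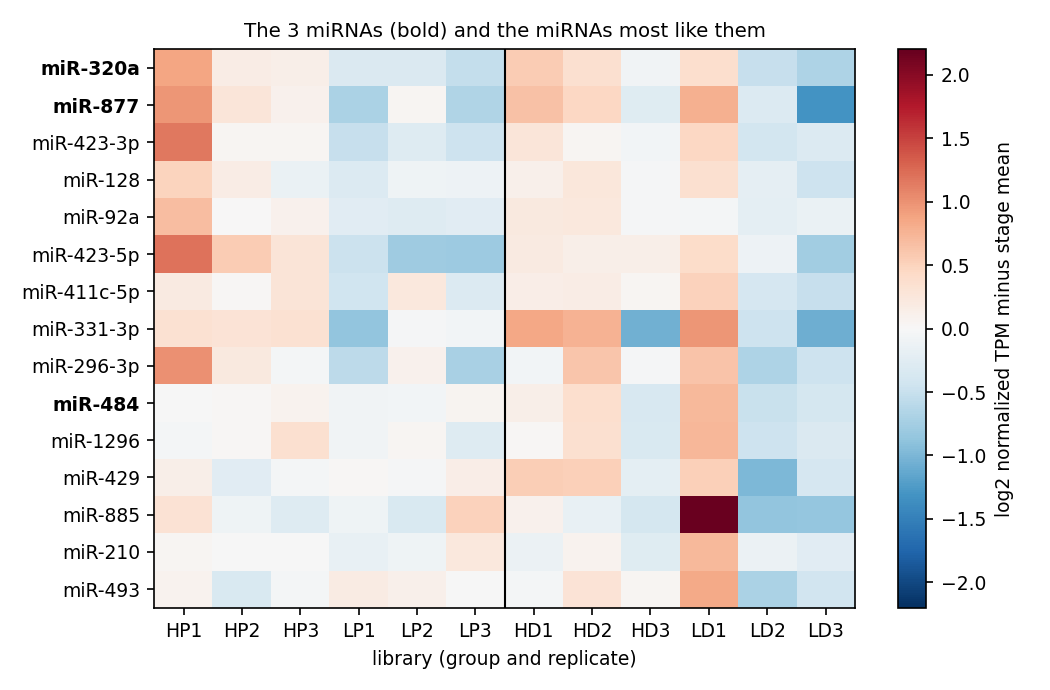
Log2(normalized TPM + 1) minus the mean of the stage (colour, red above and blue below) in each of the 12 libraries (columns, the line divides lactation from the non-lactating period) for the 3 miRNAs (bold) and the 5 miRNAs most like each of them. The rows of miR-320a and miR-877 are both highest in HP replicate 1, and the row of miR-484 is close to the stage mean in all lactation libraries and highest in LD replicate 1.

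Of 9 other miRNAs known to be made outside the usual route, 4 were in the table, miR-664b, miR-1248 and miR-1291, which derive from small nucleolar RNAs, and miR-451, which needs Drosha but is trimmed by Argonaute in place of Dicer. Unlike miR-320a and miR-877, miR-1248 was higher in LP, where it had 10.5 ± 5.06 normalized TPM against 4.12 ± 1.36 in HP (SD, n = 3), a log2 fold change of 1.06 (limma adjusted p = 0.251), and DE. miR-451, a miRNA of red blood cells, was higher in LP as well and DE (log2 fold change 1.36, limma adjusted p = 0.203). miR-664b (-0.09, limma adjusted p = 0.947) and miR-1291 (0.44, limma adjusted p = 0.555) were not DE. The median log2 fold change of these 4 was 0.75 in LP over HP and 0.33 in LD over HD, where 0 were DE (limma adjusted p = 0.993 for each), against -0.01 and 0.03 over all miRNAs. In lactation over the non-lactating period all 4 were above 0, with a median of 0.79, and miR-664b (0.73, limma adjusted p = 0.0259) and miR-1291 (0.80, limma adjusted p = 0.00406) passed the test. Differences of the 4 from miR-320a, miR-484 or miR-877 were not tested.

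Blood cells contain miR-320a and miR-484, so markers of other cells are given beside the results. The 3 red blood cell markers, miR-451, miR-144 and miR-486, summed to 823 to 1253 normalized TPM in the HP libraries and 990 to 2536 in the LP libraries, and 2 of the 3 were DE and higher in LP, opposite to miR-320a and miR-877. In the non-lactating period the sum was 278 to 829 in HD, and 483, 8023 and 880 in LD replicates 1, 2 and 3. LD replicates 2 and 3, with these unequal sums, had 20.9 and 18.4 normalized TPM of miR-320a, 120 and 130 of miR-484, and 4.74 and 1.86 of miR-877. The 4 leukocyte markers (miR-142-5p, miR-142-3p, miR-150 and miR-223) summed to 5920 to 8949 in the HP libraries and 5541 to 7274 in the LP libraries. In LP over HP miR-150 was DE and lower (log2 fold change -1.69). The others were not DE, with 0.41 for miR-223, 0.14 for miR-142-3p and -0.09 for miR-142-5p. Most of the sum is miR-142-5p, with a mean of 7903 TPM over the 12 libraries. Out of lactation the 4 leukocyte markers summed to 6677 to 10022 in HD and 13260 to 13844 in LD, without overlap, and 2 of the 4 were DE and higher in LD. The 2 smooth muscle markers, miR-143 and miR-145, summed to 61765 to 86062 in HP and 120309 to 148734 in LP, without overlap. This sum is nearly all miR-143, with a mean of 113547 TPM over the 12 libraries against 14.8 for miR-145. In LP over HP miR-143 was DE and higher (log2 fold change 0.85), whereas miR-145 went the other way and was not DE (-0.61). The 2 endothelial markers (both arms of miR-126) summed to 10876 to 16672 in lactation and 5438 to 8603 in the non-lactating period. Nearly all of this is miR-126-3p, with a mean of 10381 TPM over the 12 libraries against 23.0 for miR-126-5p. Of 3 skeletal muscle markers 2 were listed, with sums of 106 to 595 over all libraries. No marker listed was at 0 in any library. The part of cell composition in the differences of miR-320a, miR-484 and miR-877 was not tested.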

How the data were processed

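Small RNA libraries of 12 mammary biopsies were analysed, 3 in each of the groups HP, LP, HD and LD given by the sample labels. The authors trimmed reads with Cutadapt 2.8 and Trimmomatic 0.36, retained lengths of 18 to 30 nt, aligned them with Bowtie 1.1.1 (1 mismatch) to ARS-UCD1.2, and quantified miRBase 22.0 miRNAs with miRDeep2. The deposited values are RPM (reads scaled to a fixed library total), named TPM by the authors, rounded to 2 decimals, without length correction. No column was left unused (0).

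For each miRNA the precursor entry with the highest mean was taken. The number of counted reads was inferred from the value of 1 read. At least 94.0% of the distinct values of a library were multiples of that value within 0.15 reads. The deposited values were divided by median-of-ratios size factors of the libraries in each fit, 1 was added and log2 taken. Levels given as normalized TPM use factors over all 12 libraries. Fits over all 388 miRNAs used limma 3.58.1 (R 4.3.3) and its empirical Bayes step with a trend. Phenotypes were compared over the 6 libraries of a stage, and stages over 12 libraries with phenotype as a term. limma p-values are from its moderated test, adjusted by Benjamini-Hochberg. Exact permutation tests of single values and ratios were two-sided (Python 3.11.15, scipy 1.17.1). The fits and the depth inference were tested on simulated data. The labels name no batch.

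The miRNAs (by name), lists and tests were chosen with earlier results of these data known. Named besides the 3 miRNAs are a list of 9 miRNAs made outside the usual route, the 5 most alike for each, and cell type markers. Precision is limited by 3 cows per group. Alternatives were other scalings, pseudocounts of 0.1 and 5, a mean of at least 10 TPM, no trend, every precursor entry, a replicate block, 1 fit over 12 libraries and leaving out each library. Trimmed mean scaling, ratios and the spread alternatives were added after seeing the data. Tests on counts were planned and not run: the deposited values are RPM, and read numbers inferred from the rounded values were taken only for depth and counting intervals.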

Additional observations from a re-analysis of the deposited data

How the results depend on the processing

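Results for 3 miRNAs in 4 comparisons were recomputed under each alternative, 209 values in all, of which 178 had the direction and the side of the threshold given above. A result without a call counts among them when it stayed uncalled with its sign. The calls in LP over HP were kept less often. With all libraries, miR-320a kept its call in 7 of 9 alternatives and miR-877 in 6 of 9. With 1 library left out, miR-320a kept it in 4 of 6 fits and miR-877 in 2 of 6. In LP over HP, 5 added before log2 gave log2 fold changes of -0.77 for miR-320a and -0.69 for miR-877, and 1 fit over all 12 libraries gave -0.78 and -0.89, none DE. The limma adjusted p over the alternatives with all libraries ranged from 0.228 to 0.426 for miR-320a and from 0.264 to 0.482 for miR-877. In lactation over the non-lactating period the values without size factors were 0.88 for miR-320a and 0.51 for miR-484, neither past the threshold. That scaling moved the median of all miRNAs in LD over HD from 0.03 to -0.16.

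Libraries of the same replicate number are different cows. Their deviations from the group means had r of -0.20, -0.26 and 0.01 for HP with LP, and of 0.54, -0.11 and 0.50 for HD with LD. The deviations of a group sum to 0, so these r are not independent. Whether libraries of the same number share handling was not tested. Under a replicate block, miR-877 was no longer DE in LP over HP (-0.93, limma adjusted p = 0.402). It passed in lactation over the non-lactating period (0.81, limma adjusted p = 0.0322), and no other call of the 3 miRNAs changed. In LD over HD the block lowered the SE, 0.38 to 0.27 for miR-320a, 0.38 to 0.31 for miR-484, 0.55 to 0.32 for miR-877. In LP over HP it raised the SE, 0.31 to 0.33, 0.23 to 0.27 and 0.38 to 0.41 in the same order.

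Leaving out single libraries gave, in LP over HP, -0.95 to -0.58 for miR-320a and -1.20 to -0.67 for miR-877. In LD over HD it gave -0.87 to -0.39 for miR-320a, -1.09 to -0.08 for miR-877 and -0.49 to 0.073 for miR-484, the sign of which changed without HD replicate 2, LD replicate 2 or LD replicate 3. In lactation over the non-lactating period the ranges were 0.53 to 0.80 for miR-484 and 0.61 to 1.07 for miR-877. The dependence on stage ranged from -0.44 to 0.074 for miR-320a, from -0.20 to 0.41 for miR-484 and from -0.85 to 0.18 for miR-877. The number of DE miRNAs in LP over HP, 39, became 22 with 5 added and 24 to 53 without single libraries. In LD over HD, 13 became 3 without size factors, 7 with 5 added and 6 to 36 without single libraries. The cause of these changes was not tested. With a mean of at least 10 TPM required, miR-877 gave no value in LD over HD. TMM scaling, edgeR and DESeq2 were not run. A depth of 30 to 242 reads limits what can be read from miR-877.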

Other observations

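On the log2 scale of the fits, no library of the 3 miRNAs stood apart from the other 5 of its stage by Dixon's criterion. The largest gap relative to the range was 0.503, for miR-877 in LD replicate 3, below the critical value for 6 libraries, and for miR-320a in HP replicate 1 it was 0.478. The criterion took both phenotypes of a stage together and was not applied to unlogged values. In normalized TPM, HP replicate 1 had 112 of miR-320a against 68.3 in HP replicate 2. Whether HP replicate 1 stands apart is therefore not settled by it.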
